A study of Homo sapiens with 16 samples.

Results

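Expression of 43 genes of the Fanconi anemia pathway, homologous recombination and the replication stress checkpoint was examined in Mia-PaCa-2 and PANC-1, established cell lines from human pancreatic tumors. The 43 genes were taken by symbol from a list, and they are 43 of the 63677 genes in the count table. Each line had 4 groups of 2 libraries, namely control cells given neither drug, 40 nM gemcitabine, 50 µM genistein and both drugs at these concentrations, all for 24 hours and grown in DMEM with serum, which makes 16 libraries. Gemcitabine is a nucleoside analogue that blocks DNA synthesis, and genistein is a soy isoflavone. The replicates, numbered I and II, were biological replicates of 1 culture model per line. With 2 libraries per group, adjusted p-values came from limma-voom fitted across all genes tested, and they measured the spread between these libraries.

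Cells use these proteins to deal with DNA whose replication has stopped. In the Fanconi pathway a nuclear core complex attaches ubiquitin to FANCD2 and FANCI at damaged forks, and the damage is then opened by nucleases and mended by homologous recombination, in which the BRCA proteins and their partners copy an intact sister strand. The kinases ATR and ATM sense stalled forks and broken ends and hold the cell cycle through CHEK1, CHEK2 and WEE1.

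All 43 genes passed the filter on low counts in both lines. Their counts ran from 19 to 6009 per gene and library, in libraries of 12943482 to 31991860 counts. Of 5 epithelial markers listed, 3 passed the filter in Mia-PaCa-2 and 5 in PANC-1. All 5 were higher in control PANC-1 than in control Mia-PaCa-2, by log2 0.572 to 8.52. Among them, the keratins KRT8 and KRT18 were at 369 to 1076 and at 373 to 742 FPKM (fragments scaled to transcript length and library size). Of 12 markers of acinar, islet, immune, endothelial and fibroblast cells, 10 had at most 10 counts in every library. The highest of these markers had 4 counts in Mia-PaCa-2, and in PANC-1 it was PDGFRB, at 62 or more counts in each library and at 0.958 to 4.77 FPKM, one of 2 that passed the filter there. Libraries differed in how the counts depended on the GC content of a gene's exons. The slope over all genes, in log2 units per 10 percentage points of GC, ran from -0.239 in Mia-PaCa-2 control I to 0.297 in PANC-1 control I, against -0.074 in PANC-1 control II. Exon GC of the 43 genes had a median of 42.1% and ran from 35.5% to 66.8%, so each comparison below is also given after a correction for GC content. In Mia-PaCa-2 the slope was -0.239 and -0.145 in the controls and 0.148 and 0.057 with gemcitabine, without overlap. In PANC-1 these groups overlapped, at 0.297 and -0.074 against 0.051 and -0.132. The correction also removes a drug response linked to GC content, which cannot be told apart here from a difference between libraries. RNA from a population of cells cannot tell fewer cells of a kind, such as cells in S phase, from less RNA per cell.

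In control cells, all 43 genes had a mean above 1 FPKM in both lines. The mean level across genes ran from 1.54 FPKM (FANCF) to 83.5 FPKM (FANCA) in Mia-PaCa-2, with a median of 12.3 FPKM, and from 1.28 FPKM (FANCM) to 133 FPKM (MUS81) in PANC-1, with a median of 15.7 FPKM. The highest levels after FANCA in Mia-PaCa-2 were those of RAD51C at 62.7, FANCI at 52.7 and MUS81 at 46.5 FPKM. In PANC-1, MUS81 at 133 ± 24.2 (SD, n = 2) was followed by FANCG at 98.3 ± 15.96 (SD, n = 2), UBE2T at 82.7 ± 0.589 (SD, n = 2) and CHEK1 at 69.1 ± 14.9 FPKM (SD, n = 2), and MUS81 stood above FANCG by more than 1 SD of either gene, while FANCG and UBE2T, and UBE2T and CHEK1, did not differ beyond 1 SD. BRCA2 and FANCM, which encode very long proteins, were among the 3 lowest genes of both lines.

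MUS81 and FANCF were the members that stood highest in PANC-1 relative to Mia-PaCa-2. MUS81, a nuclease that cuts branched DNA, was at 43.9 and 49.1 FPKM in the Mia-PaCa-2 controls and at 150.4 and 116.2 FPKM in those of PANC-1. FANCF, the adaptor of the core complex, was at 1.475 and 1.61 FPKM in Mia-PaCa-2 and at 5.56 and 5.21 FPKM in PANC-1. SLX4, the scaffold that holds several nucleases, was at 2.93 and 3.13 FPKM in Mia-PaCa-2 and at 7.72 and 6.67 FPKM in PANC-1. For each of these 3 genes both PANC-1 controls lay above both Mia-PaCa-2 controls. In the counts MUS81 was 3.74-fold higher in PANC-1 (log2 1.91 ± 0.178 SE, adjusted p = 6.9e-07). FANCF was 3.38-fold higher (log2 1.76 ± 0.137 SE, adjusted p = 1.2e-07), and SLX4 was 2.38-fold higher (log2 1.25 ± 0.163 SE, adjusted p = 1.6e-05). Exons of MUS81 share 14.1% of their bases with CFL1 and EFEMP2 on the opposite strand, and the strand setting of the counting is not known here.

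The opposite order was found for FANCA, RAD51C and XRCC2. FANCA, a scaffold subunit of the core complex, was at 88.0 and 79.0 FPKM in the Mia-PaCa-2 controls and at 35.2 and 32.7 FPKM in those of PANC-1. Its exons share 19.6% of their bases with ZNF276 on the opposite strand. RAD51C and XRCC2 belong to a group of related proteins that assist in homologous recombination, with RAD51B, RAD51D and XRCC3. RAD51C was at 66.5 and 58.9 FPKM in Mia-PaCa-2 against 24.2 and 33.4 FPKM in PANC-1. XRCC2 was at 8.84 and 8.003 FPKM in Mia-PaCa-2 against 3.43 and 4.98 FPKM in PANC-1. The groups did not overlap for any of these 3 genes, and in the counts the log2 differences were -1.15 ± 0.118 (SE, adjusted p = 1.6e-06) for FANCA, -1.14 ± 0.149 (SE, adjusted p = 1.7e-05) for RAD51C and -1.02 ± 0.157 (SE, adjusted p = 7.4e-05) for XRCC2.

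Of the 43 genes, 24 passed the thresholds between the control lines, which required an adjusted p up to 0.05, a log2 difference of 0.4 or more in either direction and a mean above 1 FPKM in at least 1 line. Of all genes tested, 52.3% passed, so the share of the members, 55.8%, was near that of all genes. The median log2 difference was 0.21 for the members and 0.06 for all genes tested. Among the members, 15 were higher and 9 lower in PANC-1, against 27.9% and 24.3% of all genes tested. FANCG of the core complex (log2 1.16), UBE2T, the enzyme that brings ubiquitin to FANCD2 and FANCI (log2 1.118), and the kinase gene CHEK1 (log2 1.07) were also higher in PANC-1. In the BRCA complex, 3 of 5 genes were lower in PANC-1, namely BRIP1 (log2 -0.57), BRCA1 (log2 -0.53) and BARD1 (log2 -0.45). Corrected for GC content, 22 genes passed, against 55.0% of all genes tested, and these 3 BRCA complex genes did not, nor did FANCE or H2AFX, while MRE11A, BLM and ATM did. Without Mia-PaCa-2 control I, 15 genes passed, 11 higher and 4 lower. BARD1 and BRCA1 did not pass without either Mia-PaCa-2 control or PANC-1 control I, and BRIP1 did not pass without control I of either line, while BRCA1 and BRIP1 were also lost without any 1 of the 4 gemcitabine libraries. For 2 of the 43 genes the direction differed between FPKM and counts.

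**Figure D1:**
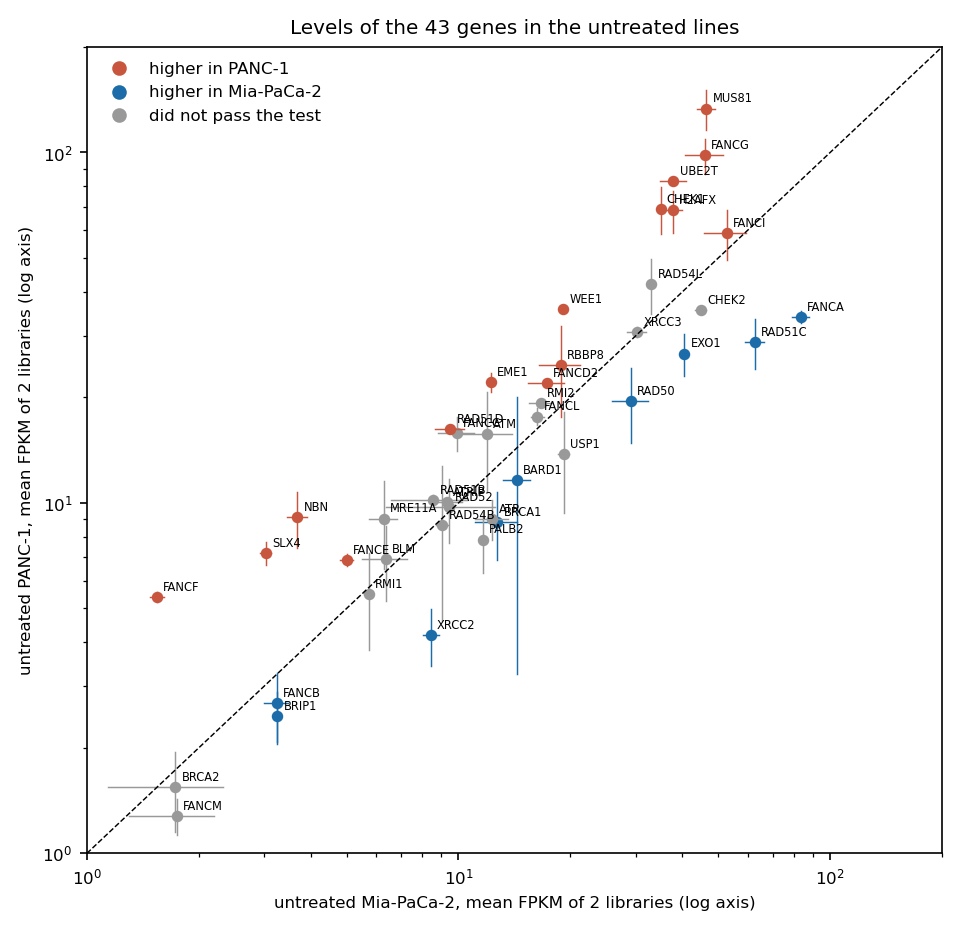
Level of each of the 43 genes in control cells, with mean FPKM in Mia-PaCa-2 on the horizontal axis and in PANC-1 on the vertical axis, both on log scales, and bars that span the 2 libraries. MUS81 at 133 FPKM is the highest gene of PANC-1 and FANCA at 83.5 FPKM the highest of Mia-PaCa-2, and they lie on opposite sides of the line of equal level.

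Gemcitabine in PANC-1 raised members of the recombination machinery. Of the 43 genes, 12 rose and 1 fell, that is 30.2% called against 7.52% of all genes tested, and 4.49% of all genes tested rose while 3.03% fell. The median log2 change was 0.58 for the members and 0.03 for all genes tested, and 36 of 43 genes had a positive change. In the BRCA complex 3 of 5 genes rose (BRIP1, BARD1 and PALB2), in the XRCC2 and XRCC3 group 3 of 5 (XRCC2, XRCC3 and RAD51D), and in the FANCD2 and FANCI group, with their ubiquitin enzymes, 3 of 4 (FANCD2, FANCI and UBE2T). In the core complex FANCA rose and FANCF fell. Among the 5 genes of end sensing and resection EXO1 rose, and among the 6 of dissolution and junction cleavage RMI2 rose. None of the 7 checkpoint and histone genes and none of the 3 genes of annealing and strand exchange (RAD52, RAD54L and RAD54B) passed.

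**Figure D2:**
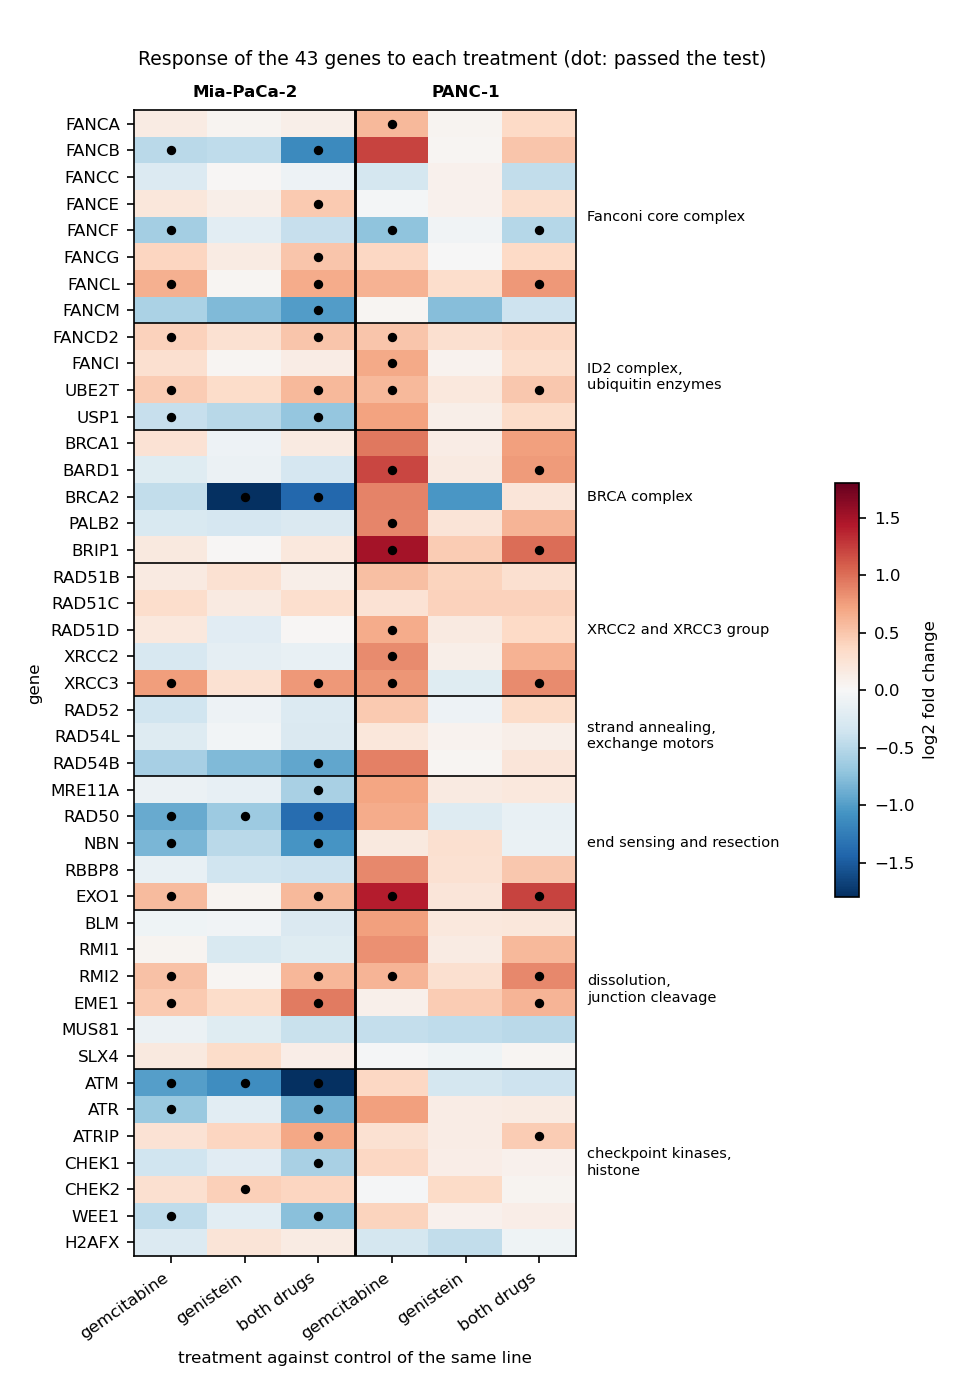
Log2 fold change of each of the 43 genes (rows, grouped by role) in the 6 comparisons of a treatment with its control (columns), with a dot where the change passed the thresholds. The gemcitabine column of PANC-1 holds 12 risen genes and 1 fallen gene, and the genistein column of PANC-1 holds no dot.

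EXO1, an exonuclease that resects broken ends, had the lowest adjusted p of these. In normalized CPM (counts scaled to library size, with TMM factors within a line), EXO1 was at 39.9 and 53.1 in the PANC-1 controls and at 118 and 131 with gemcitabine. BRIP1, a helicase that binds BRCA1, was at 9.73 and 17.03 CPM in the controls and at 34.7 and 39.4 CPM with gemcitabine. BARD1, the partner of BRCA1 in its ubiquitin ligase, was at 13.3 and 19.4 CPM in the controls and at 36.5 and 38.7 CPM with gemcitabine. For all 3 genes both gemcitabine libraries lay above both controls, and control I was the lower of the controls. EXO1 was 2.66-fold higher (log2 1.41 ± 0.180 SE, adjusted p = 0.00631), BRIP1 was 2.83-fold higher (SE of the log2 change 0.267, adjusted p = 0.0174) and BARD1 was 2.31-fold higher (log2 1.21 ± 0.200 SE, adjusted p = 0.0141). PALB2, which joins BRCA1 to BRCA2, rose by log2 0.87 ± 0.188 (SE, adjusted p = 0.0309), and XRCC2 rose by log2 0.85 ± 0.206 (SE, adjusted p = 0.0444). XRCC3, of the same group, was at 71.8 and 53.5 CPM in the controls and at 113.2 and 98.95 CPM with gemcitabine (log2 0.79 ± 0.195 SE, adjusted p = 0.0473). Exons of XRCC3 share 76.7% of their bases with KLC1 on the opposite strand, and the strand setting of the counting is not given in the sources used here.

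FANCF was the single member that fell. It was at 22.3 and 20.4 CPM in the PANC-1 controls and at 12.8 and 12.97 CPM with gemcitabine, so that both treated libraries lay below both controls (log2 -0.72 ± 0.132 SE, adjusted p = 0.0191). Members with large changes that did not pass were FANCB, another core complex gene (log2 1.22, adjusted p = 0.0664), BRCA1 (log2 0.94, adjusted p = 0.0603) and RAD54B, a strand exchange motor (log2 0.91, adjusted p = 0.0974). BRCA2, a core protein of homologous recombination, was at 4.79 and 9.47 CPM in the controls against 11.6 and 14.2 CPM with gemcitabine (log2 0.89, adjusted p = 0.281).

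The number of PANC-1 members that passed depended on single libraries and on the GC content. The share of all genes called with a library left out is not given here. Those counts therefore do not tell a change of the members from a change in calls over all genes. Without control I, 6 genes rose and none fell, without control II, 19 rose and 2 fell, and without either gemcitabine library no gene passed, although the median log2 change of the members stayed between 0.40 and 0.63. Without either genistein library 2 genes passed, EXO1 and BARD1. With the GC correction 24 rose and 1 fell, against 17.9% of all genes tested that were then called. These 25 included 12 of the 13 found without it, with UBE2T lost, and FANCB (log2 1.02), BRCA1 (log2 0.86), RAD54B (log2 0.69), MRE11A (log2 0.52) and ATR (log2 0.53) among those gained. EXO1 (log2 1.37 ± 0.111 SE, adjusted p = 1.0e-04), BRIP1 (log2 1.30 ± 0.118 SE, adjusted p = 1.7e-04) and BARD1 (log2 1.01 ± 0.097 SE, adjusted p = 2.3e-04) kept their calls after the correction. With library size in place of TMM the median of all genes in this comparison moved from 0.03 to 0.14 and that of the members from 0.58 to 0.69.

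Promoter windows from RefSeq (GRCh38.p14), from 250 bases before to 50 after each gene's start, were found for 38 of the 43 genes. The genes without a window were FANCI, RAD54B, NBN, RMI2 and WEE1. E2F factors switch on S phase genes, and 4 forms of the E2F site were searched on both strands, namely TTTGGCGC, TTTCGCGC, TTTCCCGC and TTTGCCGC. At least 1 of them was in a window of 6 of the 38 genes (15.8%) and in a window of 1090 of 27305 genes (4.0%). The CHR element of mitotic genes (TTTGAA or TTCGAA) was in 6 of 38 (15.8%) against 19.5% of genes, and the CCAAT box in 19 of 38 (50.0%) against 39.7%. Of the 12 genes that rose with gemcitabine in PANC-1, 10 had a window and 4 of these held an E2F form. These 4 windows are shown, cut at 30 bases after the start, as the risen members in which the letters occur, written 5′ to 3′ on the strand of the gene with the E2F letters in capitals. A match in letters is a description and not evidence of binding.
FANCA (chr16:89816618-89816897, minus strand): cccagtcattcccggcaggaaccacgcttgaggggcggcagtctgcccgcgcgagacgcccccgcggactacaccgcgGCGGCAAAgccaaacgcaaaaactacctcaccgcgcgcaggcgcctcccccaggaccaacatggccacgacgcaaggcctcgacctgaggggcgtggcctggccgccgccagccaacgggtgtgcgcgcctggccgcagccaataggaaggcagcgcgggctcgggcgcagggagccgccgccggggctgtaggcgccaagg
FANCD2 (chr3:10026187-10026466, plus strand): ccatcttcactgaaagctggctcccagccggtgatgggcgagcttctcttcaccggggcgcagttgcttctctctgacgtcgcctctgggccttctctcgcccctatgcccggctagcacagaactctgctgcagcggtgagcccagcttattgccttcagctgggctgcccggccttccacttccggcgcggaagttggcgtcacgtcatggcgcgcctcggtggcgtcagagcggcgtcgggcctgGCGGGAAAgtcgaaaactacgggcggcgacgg
XRCC2 (chr7:152676112-152676391, minus strand): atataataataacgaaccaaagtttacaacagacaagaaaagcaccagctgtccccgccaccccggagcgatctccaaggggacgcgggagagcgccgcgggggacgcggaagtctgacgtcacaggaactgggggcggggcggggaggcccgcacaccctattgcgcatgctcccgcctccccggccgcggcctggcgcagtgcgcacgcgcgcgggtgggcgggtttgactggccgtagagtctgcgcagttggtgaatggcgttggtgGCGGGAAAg
EXO1 (chr1:241847954-241848233, plus strand): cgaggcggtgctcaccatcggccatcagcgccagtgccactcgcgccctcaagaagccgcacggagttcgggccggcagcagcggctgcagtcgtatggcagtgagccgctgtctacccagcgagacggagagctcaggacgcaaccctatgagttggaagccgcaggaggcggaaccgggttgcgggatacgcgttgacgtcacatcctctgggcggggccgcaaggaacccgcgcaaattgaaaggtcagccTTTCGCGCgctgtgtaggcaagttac

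The E2F letters lay from -172 to -165 relative to the start in FANCA, from -2 to 6 in FANCD2, from 22 to 29 in XRCC2 and from 5 to 12 in EXO1. In these 4 genes the log2 change with gemcitabine in PANC-1 was 0.58, 0.50, 0.85 and 1.41, in the same order. BRIP1, BARD1 and PALB2, which rose by more than FANCA and FANCD2, held none of these letters in their windows.

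Genistein alone called none of the 43 genes in PANC-1 by limma-voom, where 0.0591% of all genes tested were called. An unadjusted p under 0.05 was found for 3 members by limma-voom, 4 by edgeR's quasi-likelihood test and 4 by DESeq2. The shares of all genes tested were 19.2%, 20.1% and 16.2%, in the same order. Neither edgeR nor DESeq2 called a member, where they called 12 and 754 of the 16909 genes tested. Corrected for GC content, 0 members passed as well, against 7.17% of all genes tested. An unadjusted p under 0.05 was then found for 9 members, against 29.3% of all genes tested. The median log2 change was 0.12 for the members and 0.05 for all genes tested. The largest change was that of BRCA2, at 4.79 and 9.47 CPM in the controls and 3.56 and 3.10 CPM with genistein (log2 -1.05 ± 0.597 SE, adjusted p = 0.379), and both treated libraries lay below both controls. EME1, the partner of MUS81, was at 39.5 and 37.4 CPM in the controls and 53.1 and 51.9 CPM with genistein (log2 0.45 ± 0.115 SE, adjusted p = 0.128).

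With both drugs in PANC-1, 9 members rose and 1 fell, that is 23.3% called against 17.1% of all genes tested, of which 10.2% rose and 6.90% fell, and the median log2 change was 0.33 for the members and 0.01 for all genes tested. This comparison shares its control libraries with that of gemcitabine. EXO1 was at 39.9 and 53.1 CPM in the controls and at 127 and 93.7 CPM with both drugs, with no overlap (log2 1.22 ± 0.185 SE, adjusted p = 0.00437). BRIP1 was at 31.7 and 21.9 CPM with both drugs, also above both controls (log2 1.004 ± 0.278 SE, adjusted p = 0.0403). RMI2, a subunit of the complex that dissolves paired junctions, was at 25.2 and 25.4 CPM in the controls and at 45.9 and 46.6 CPM with both drugs. It was 1.83-fold higher (log2 0.87 ± 0.119 SE, adjusted p = 0.00300) and had the lowest adjusted p in this comparison. XRCC3 (log2 0.85), FANCL, the ubiquitin ligase of the core complex (log2 0.78), BARD1 (log2 0.77), EME1 (log2 0.61), UBE2T (log2 0.48) and ATRIP, the partner of ATR (log2 0.45), were the other genes that rose. FANCF fell, from 22.3 and 20.4 CPM to 14.7 and 15.1 CPM (log2 -0.51 ± 0.132 SE, adjusted p = 0.0317).

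EXO1, RMI2 and EME1 passed with any 1 of the 8 libraries left out. In this comparison 6 genes passed without either gemcitabine library, 4 without either genistein library and 4 without both-drug library I, and BRIP1, BARD1 and FANCF were lost in each of these cases and without control I. After the GC correction 13 rose and 3 fell, against 28.9% of all genes tested, and MUS81 (log2 -0.40) and FANCC of the core complex (log2 -0.48) were then among the fallen genes. With library size in place of TMM 17 rose and none fell, while the median of all genes tested moved from 0.01 to 0.17 and that of the members from 0.33 to 0.49.

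Adding genistein to gemcitabine in PANC-1 called no member by limma-voom, against 0.0177% of all genes tested. An unadjusted p under 0.05 was found for 5 members by limma-voom, 3 by edgeR and 7 by DESeq2. The shares of all genes tested were 13.4%, 13.5% and 10.4%, in the same order. DESeq2 called 1 member, EME1, among 207 genes called over all genes tested, where limma-voom and edgeR called 3 genes each. EME1 was at 40.8 and 41.2 CPM with gemcitabine and at 61.3 and 56.0 CPM with both drugs, with no overlap (log2 0.51 ± 0.113 SE, adjusted p = 0.135), and after the GC correction it was the 1 member to pass (log2 0.43 ± 0.084 SE, adjusted p = 0.0190), against 6.87% of all genes tested. Of the 43 genes, 32 were lower with both drugs, and the median log2 difference was -0.22 for the members and -0.02 for all genes tested. BRIP1 had a log2 difference of -0.50 and BARD1 one of -0.44 (adjusted p = 0.442 and 0.386). Across the 43 genes, which are not replicates and share these libraries, the rank correlation of the difference with exon GC was 0.686, and 0.367 after the GC correction. Over all genes tested with a known GC content it was 0.236 before the correction. The GC slope was 0.235 in both-drug library II and -0.162 in both-drug library I, and their part in this result was not tested.

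In Mia-PaCa-2 gemcitabine moved members in both directions. Of the 43 genes 7 rose and 8 fell, that is 34.9% called, near the 29.6% of all genes tested, of which 15.0% rose and 14.6% fell, and the median log2 change was -0.10 for the members and -0.01 for all genes tested. In the core complex FANCL rose while FANCF and FANCB fell, and FANCD2 and UBE2T rose while USP1, which removes the ubiquitin again, fell. RMI2 and EME1 rose. Among the 5 genes of end sensing and resection EXO1 rose and RAD50 and NBN fell, and of the checkpoint genes ATM, ATR and WEE1 fell. None of the 5 BRCA complex genes and none of the 3 genes of annealing and strand exchange passed.

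XRCC3 had the largest rise in Mia-PaCa-2, from 49.0 and 53.3 CPM in the controls to 91.9 and 80.9 CPM with gemcitabine (log2 0.76 ± 0.116 SE, adjusted p = 3.6e-04). FANCL went from 28.6 and 25.7 CPM to 42.6 and 42.6 CPM (log2 0.65 ± 0.120 SE, adjusted p = 0.00129). EXO1 went from 72.8 and 67.4 CPM to 101.3 and 106.3 CPM (log2 0.56 ± 0.105 SE, adjusted p = 0.00123). In these 3 genes both treated libraries lay above both controls, and the calls were kept under each of the 19 alternatives.

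Among the genes that fell, ATM, the kinase that answers to broken ends, was at 36.2 and 33.2 CPM in the controls and at 18.4 and 16.6 CPM with gemcitabine (log2 -0.99 ± 0.239 SE, adjusted p = 0.00603). RAD50 and NBN encode subunits of the complex that binds broken ends with MRE11A. RAD50 was at 92.7 and 86.5 CPM in the controls and at 47.8 and 47.4 CPM with gemcitabine (log2 -0.91 ± 0.163 SE, adjusted p = 9.5e-04). NBN was at 19.5 and 20.4 CPM in the controls and at 10.5 and 12.1 CPM with gemcitabine (log2 -0.82 ± 0.169 SE, adjusted p = 0.00238). The treated libraries lay below the controls in all 3 genes. RAD50 exons share 76.9% of their bases with another gene on the same strand, so part of its count may belong to that gene. ATR fell by 0.67 and FANCF by 0.62 on the log2 scale.

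After the GC correction 12 members rose and 5 fell, against 27.2% of all genes tested that were then called, and 10 genes were shared with the 15. ATM (log2 -0.63), RAD50 (log2 -0.64) and FANCF (log2 -0.48) still fell, while NBN (log2 -0.37, adjusted p = 0.0544), ATR (log2 -0.19, adjusted p = 0.123), FANCB, WEE1 and USP1 did not pass. BRIP1 (log2 0.57), RAD51C (log2 0.60), FANCI (log2 0.51), BRCA1 (log2 0.45) and RMI1, a partner of RMI2 (log2 0.53), then rose, and H2AFX, the gene of the histone that is marked at broken DNA (log2 -0.79), and RAD52 (log2 -0.44) fell. The rank correlation of the log2 change with exon GC across the 43 genes was 0.419 before the correction and -0.098 after it. Over all genes tested with a known GC content it was 0.426 before the correction, near that of the members. Without Mia-PaCa-2 control I 9 genes passed (6 rose, 3 fell), and without control II also 9 (4 rose, 5 fell). ATM did not pass without control I or gemcitabine II, and FANCF did not pass without any 1 of the 4 libraries compared. With library size in place of TMM 9 rose and 5 fell, the median of all genes tested moved from -0.01 to 0.09, and that of the members changed sign, from -0.10 to 0.01.

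**Figure D3:**
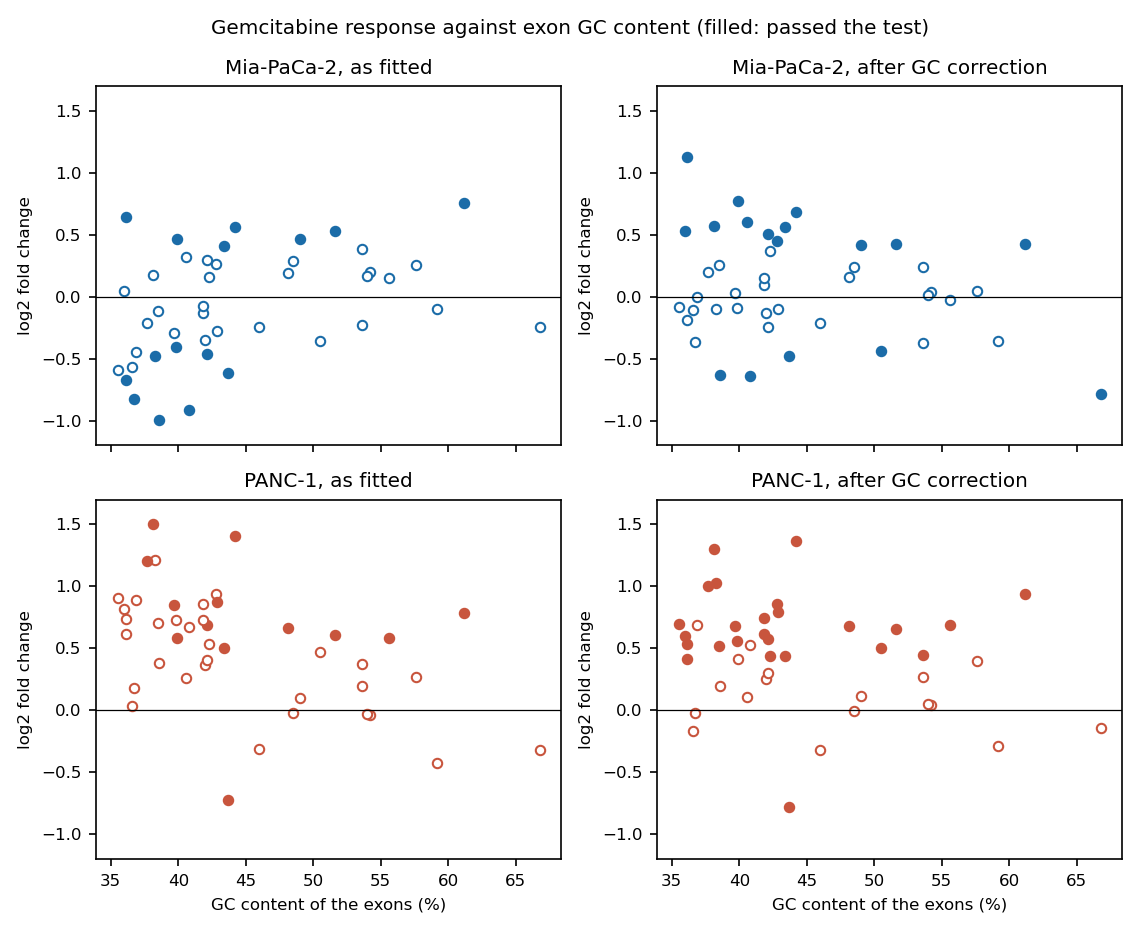
Log2 change with gemcitabine of the 43 genes against the GC content of their exons (percent), in each line as fitted and after the GC correction, with filled points for genes that passed. As fitted, genes of low GC content lie lower in Mia-PaCa-2 (rank correlation 0.419) and higher in PANC-1 (-0.499), and after the correction the values are -0.098 and -0.252. Over all genes tested with a known GC content the values as fitted are 0.426 and -0.279.

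Genistein alone in Mia-PaCa-2 called 4 members, 9.30%, near the 8.31% of all genes tested. Of the 4, 1 rose and 3 fell, where 4.18% of all genes tested rose and 4.13% fell. The median log2 change was -0.09 for the members and 0.00 for all genes tested. CHEK2, a checkpoint kinase downstream of ATM, was at 53.6 and 51.0 CPM in the controls and at 73.1 and 68.7 CPM with genistein (log2 0.43 ± 0.117 SE, adjusted p = 0.0331). BRCA2 was at 9.80 and 10.9 CPM in the controls and at 1.53 and 4.43 CPM with genistein, the lower of which rested on 19 counts (log2 -1.81 ± 0.379 SE, adjusted p = 0.0118). ATM was at 10.7 and 21.4 CPM with genistein (log2 -1.12 ± 0.245 SE, adjusted p = 0.0141). RAD50 was at 46.8 and 66.7 CPM (log2 -0.66 ± 0.160 SE, adjusted p = 0.0226). In all 4 genes, which were named because they were called on these same libraries, the treated libraries lay on 1 side of both controls. For the 3 fallen genes genistein I was the lower library. After the GC correction 4 members passed, against 10.7% of all genes tested. BRCA2 (log2 -1.52, adjusted p = 0.00679), ATM (log2 -0.92, adjusted p = 0.00503) and RAD50 (log2 -0.54, adjusted p = 0.00583) still fell, CHEK2 fell short of the fold threshold (log2 0.34) and UBE2T rose (log2 0.47). Without either control no member passed, without genistein I only BRCA2 passed, and without either both-drug library 1 rose and 7 fell. RAD50 did not pass without either gemcitabine library, and BRCA2 and CHEK2 did not pass without genistein II.

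With both drugs in Mia-PaCa-2, 10 members rose and 12 fell, that is 51.2% called against 40.5% of all genes tested, of which 20.3% rose and 20.2% fell. The median log2 change was -0.14 for the members and -0.01 for all genes tested. EME1 was at 23.8 and 24.2 CPM in the controls and at 45.8 and 45.8 CPM with both drugs, a 1.91-fold rise (log2 0.93 ± 0.108 SE, adjusted p = 1.8e-05). XRCC3 was at 81.3 and 95.2 CPM with both drugs (log2 0.79 ± 0.117 SE, adjusted p = 1.3e-04). ATRIP was at 20.3 and 19.5 CPM in the controls and at 31.1 and 33.2 CPM with both drugs (log2 0.69 ± 0.117 SE, adjusted p = 3.3e-04). For these 3 genes both treated libraries lay above both controls. ATRIP exons share 26.7% of their bases with TREX1 on the same strand, and EME1 exons share 16.4% with LRRC59 on the opposite strand. FANCL, RMI2, UBE2T, EXO1, FANCD2, FANCG and FANCE were the other members that rose, by log2 0.48 to 0.66.

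The largest falls with both drugs were those of ATM, BRCA2 and RAD50. ATM was at 12.9 and 7.75 CPM with both drugs against 36.2 and 33.2 CPM in the controls (log2 -1.81 ± 0.268 SE, adjusted p = 1.3e-04). BRCA2 was at 4.75 and 3.19 CPM against 9.80 and 10.9 CPM (log2 -1.41 ± 0.349 SE, adjusted p = 0.00462). RAD50 was at 41.5 and 28.9 CPM against 92.7 and 86.5 CPM (log2 -1.38 ± 0.171 SE, adjusted p = 3.2e-05). In each of the 3 the groups did not overlap, and both-drug library II, with a GC slope of 0.295, was the lower of the treated libraries. FANCB (log2 -1.14), NBN (log2 -1.06) and FANCM, the motor that anchors the core complex on DNA (log2 -1.004), followed, and RAD54B, ATR, WEE1, USP1, CHEK1 and MRE11A were the others that fell. After the GC correction 11 rose and 7 fell, against 39.1% of all genes tested, with 12 genes shared. ATM (log2 -1.291), RAD50 (log2 -1.03), FANCB (log2 -0.60) and WEE1 (log2 -0.50) still fell, and BRCA2 (log2 -0.74, adjusted p = 0.0522), NBN (log2 -0.37, adjusted p = 0.0501) and ATR (log2 -0.15, adjusted p = 0.213) did not pass. BRCA2 was also lost without both-drug library I.

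Genistein added to gemcitabine in Mia-PaCa-2 called 2 members, EME1 and ATRIP, both higher, that is 4.65%, near the 5.88% of all genes tested, of which 4.05% were higher. EME1 was at 33.4 and 32.9 CPM with gemcitabine and at 45.8 and 45.8 CPM with both drugs (log2 0.47 ± 0.101 SE, adjusted p = 0.0164). ATRIP was at 24.1 and 23.5 CPM with gemcitabine and at 31.1 and 33.2 CPM with both drugs (log2 0.43 ± 0.112 SE, adjusted p = 0.0355). Both-drug libraries lay above both gemcitabine libraries in both genes. After the GC correction 4 genes passed, against 9.72% of all genes tested, with EME1 (log2 0.40) and H2AFX (log2 0.42) higher and ATM (log2 -0.66) and FANCB (log2 -0.50) lower, and ATRIP fell short of the fold threshold (log2 0.37). Without either gemcitabine library no gene passed, without either control or without both-drug library II 1 passed, without either genistein library 4 passed (2 higher, 2 lower), and without both-drug library I 10 passed (3 higher, 7 lower).

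**Figure D4:**
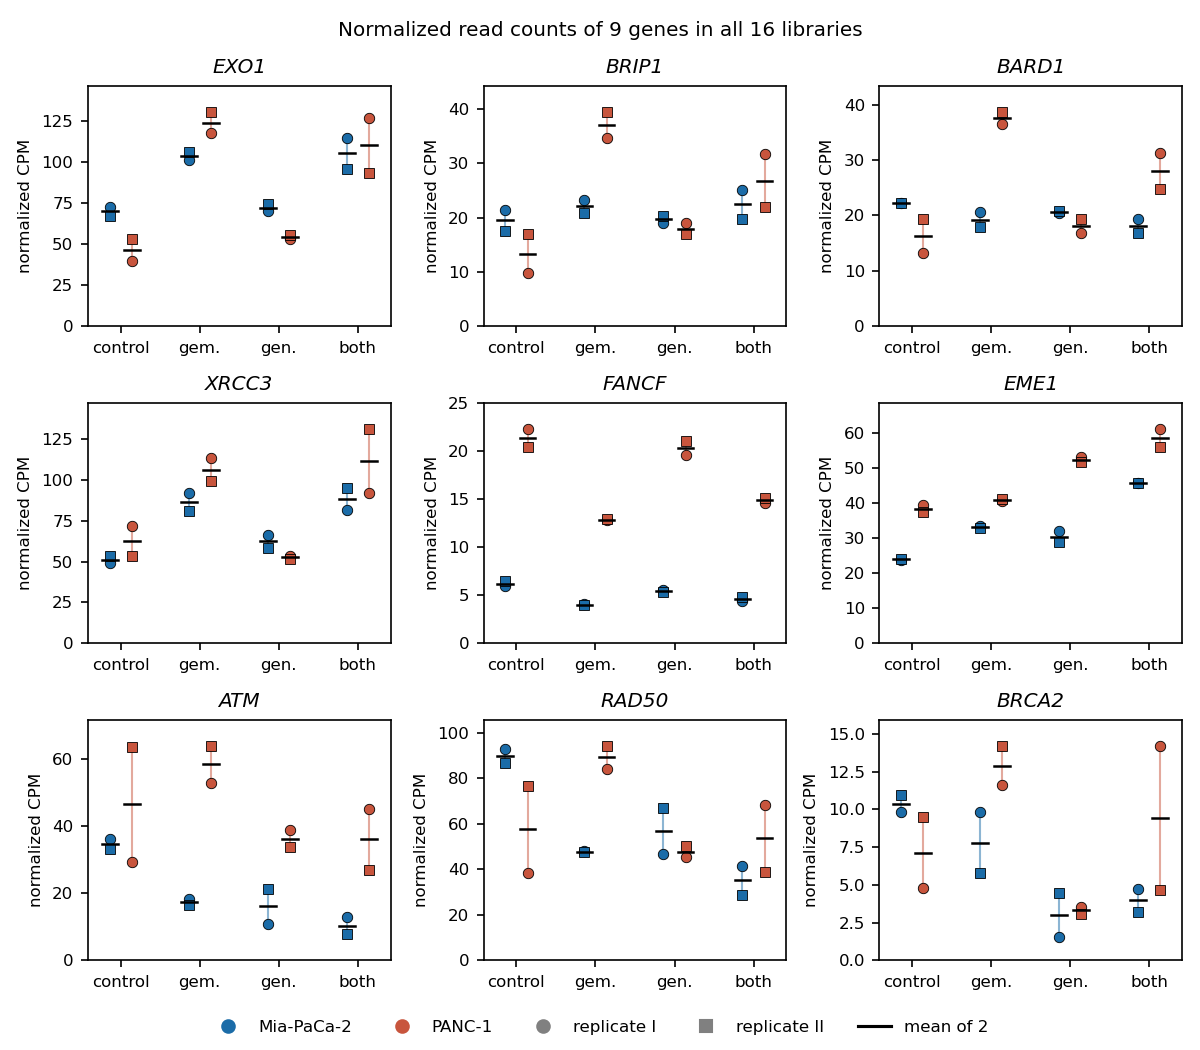
Normalized CPM of EXO1, BRIP1, BARD1, XRCC3, FANCF, EME1, ATM, RAD50 and BRCA2 in each of the 16 libraries (blue for Mia-PaCa-2, red for PANC-1, circles for replicate I, squares for replicate II, black bars for the mean of the 2). EXO1 lies at 118 and 131 CPM with gemcitabine in PANC-1, above its controls at 39.9 and 53.1 CPM, and ATM falls to 12.9 and 7.75 CPM with both drugs in Mia-PaCa-2.

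Across the lines, gemcitabine raised 5 members in both, namely FANCD2, UBE2T, XRCC3, EXO1 and RMI2, and lowered FANCF in both. Of the 15095 genes tested in both lines, 1.64% rose in both and 1.11% fell in both. In at least 1 line 22 of the 43 members were called, against 34.8% of the genes tested in both, and 21 were called in neither. With both drugs 7 members rose in both lines, namely FANCL, UBE2T, XRCC3, EXO1, RMI2, EME1 and ATRIP, against 5.78% of genes, and 25 of the 43 were called in at least 1 line, against 49.1% of genes. No member was called in opposite directions, where 0.576% of genes were with gemcitabine and 0.980% with both drugs.

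Whether the response to gemcitabine differed between the lines was tested in 1 model over all 16 libraries, by the adjusted p alone. It differed for 12 of the 43 genes, 11 of them with a response higher in PANC-1 and 1 with a lower one, that is 27.9% against 15.3% of all genes tested, of which 6.21% were higher and 9.06% lower. The median difference was 0.50 for the members and -0.08 for all genes tested. FANCB differed by log2 1.59 ± 0.386 (SE, adjusted p = 0.0176), RAD50 by 1.49 ± 0.388 (SE, adjusted p = 0.0237) and RAD54B by 1.38 ± 0.391 (SE, adjusted p = 0.0331). RAD50 was at 38.4 and 76.6 CPM in the PANC-1 controls and at 84.1 and 94.2 CPM with gemcitabine, where in Mia-PaCa-2 it went from 92.7 and 86.5 to 47.8 and 47.4 CPM. RAD54B exons share 66.0% of their bases with FSBP on the same strand. BARD1 differed by 1.31 ± 0.223 (SE, adjusted p = 0.00287), the lowest adjusted p of the 12. In Mia-PaCa-2 BARD1 was at 22.2 and 22.3 CPM in the controls and at 20.6 and 17.9 CPM with gemcitabine, both below the controls (log2 -0.21, adjusted p = 0.204). The FPKM of BARD1 in Mia-PaCa-2 lay the other way, at 15.6 and 13.1 in the controls and at 17.4 and 40.4 with gemcitabine. On log2(FPKM + 1) limma-trend called neither the rise of BARD1 in PANC-1 (log2 1.56, adjusted p = 0.214) nor its difference between the lines (log2 0.71, adjusted p = 0.630).

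The other genes with a higher response in PANC-1 were ATR, the kinase that senses stalled forks (log2 1.31), BRIP1 (log2 1.21), PALB2 (log2 1.05), XRCC2 (log2 1.04), WEE1, which holds back entry into mitosis (log2 0.77), EXO1 (log2 0.75) and RAD52, which anneals strands (log2 0.73). In the BRCA complex 3 of 5 genes differed, and BRCA1 (log2 0.58, adjusted p = 0.186) and BRCA2 (log2 1.23, adjusted p = 0.194) did not pass. EME1 was the gene with a lower response in PANC-1, at 39.5 and 37.4 CPM in the controls and 40.8 and 41.2 CPM with gemcitabine there, against 23.8 and 24.2 CPM and 33.4 and 32.9 CPM in Mia-PaCa-2 (log2 -0.47 ± 0.145 SE, adjusted p = 0.0456).

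Corrected for GC content, 20 members differed, 17 with a response higher in PANC-1 and 3 with a lower one, against 25.9% of all genes tested, and these included all 12 above. The differences were smaller for FANCB (log2 1.05), RAD50 (log2 1.09), RAD54B (log2 0.71), BARD1 (log2 0.74) and ATR (log2 0.65). Without PANC-1 control II 20 were higher and 2 lower. Without Mia-PaCa-2 control I, control II, gemcitabine I or gemcitabine II, or PANC-1 gemcitabine II, 3, 6, 4, 5 and 4 members differed, all with a higher response in PANC-1. BARD1 and XRCC2 differed with any 1 of the 16 libraries left out, and EME1 only without PANC-1 control II or both-drug library II. With library size in place of TMM 13 members had a higher response in PANC-1 and none a lower one, and the median difference of all genes tested moved from -0.08 to 0.02 and that of the members from 0.50 to 0.60. The response to genistein differed for no member by limma-voom, against 0.0336% of all genes tested. An unadjusted p under 0.05 was found for 1 member by limma-voom, 3 by edgeR and 3 by DESeq2. The shares of all genes tested were 11.5%, 12.9% and 11.6%, in the same order, and edgeR and DESeq2 called no member. Over all genes tested, edgeR called 19 and DESeq2 185. No member differed after the GC correction either, against 2.09% of all genes tested.

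**Figure D5:**
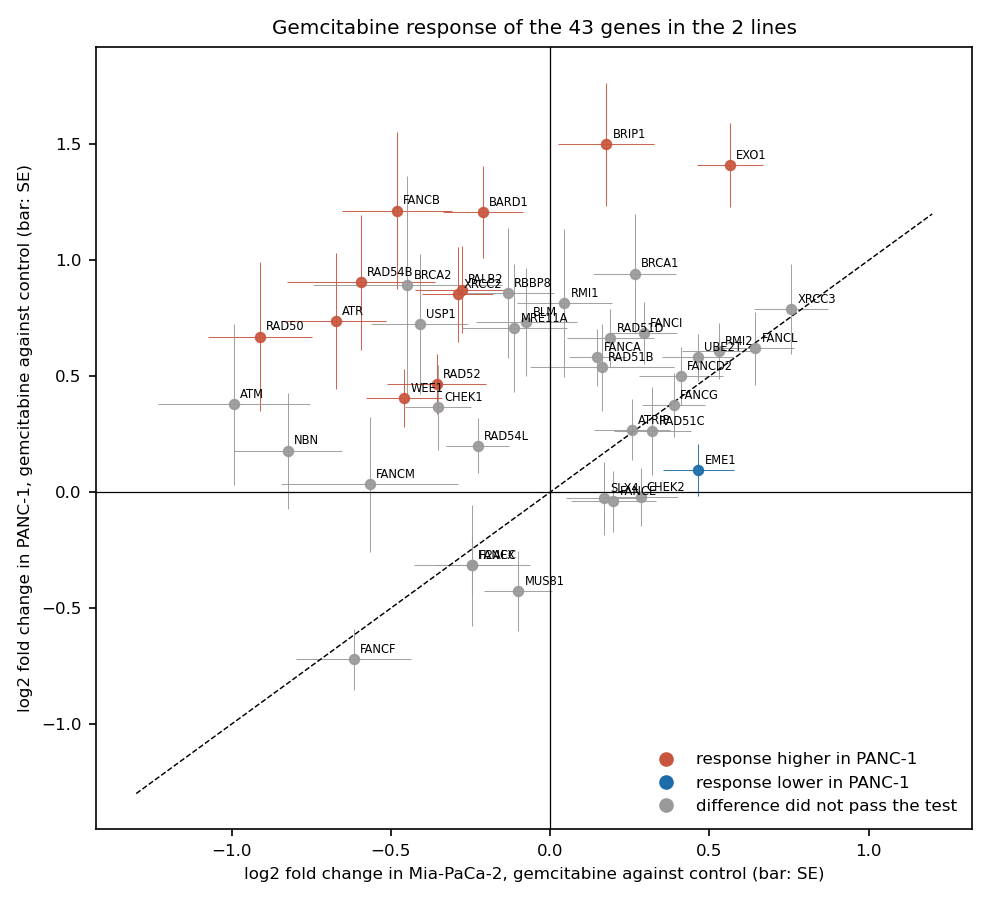
Log2 change with gemcitabine of the 43 genes in Mia-PaCa-2 (horizontal axis) and PANC-1 (vertical axis), with bars for the standard error. Red marks the 11 genes with a higher response in PANC-1 and blue marks EME1, the gene with a lower one, and BRIP1, EXO1 and BARD1 lie highest among the genes that passed in PANC-1.

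Other genes of these pathways were described from a list of 50 partners, of which 47 were tested. With gemcitabine 4 rose and 1 fell in PANC-1, that is 10.6% called against 7.52% of all genes tested, and the median log2 change was 0.25. TIPIN and CLSPN, which carry the signal from stalled forks to CHEK1, rose by log2 1.10 ± 0.225 (SE, adjusted p = 0.0268) and 1.05 ± 0.192 (SE, adjusted p = 0.0189), while C17orf70, a core complex subunit, fell by 1.34 on the log2 scale (adjusted p = 0.0240). In Mia-PaCa-2 7 partners rose and 10 fell with gemcitabine, with a median of 0.00. That is 36.2% called, near the 29.6% of all genes tested. POLN, a translesion polymerase, rose 2.445-fold and RECQL4, a helicase, 1.64-fold, while REV3L, the catalytic subunit of another translesion polymerase, fell by 1.09 and RIF1, which limits resection, by 1.06 on the log2 scale. Both drugs called 13 risen and 10 fallen partners in Mia-PaCa-2 and 7 risen and 2 fallen in PANC-1. The shares called were 48.9% against 40.5% of all genes tested in Mia-PaCa-2, and 19.1% against 17.1% in PANC-1.

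Markers of cell cycle phases also changed with gemcitabine and with both drugs. Of 10 S phase markers, 7 rose with gemcitabine in PANC-1 (median log2 change 0.65, with CCNE2 at 2.09) and 3 in Mia-PaCa-2 (median 0.29, with CCNE2 at 0.998), and none fell in either line. Of 10 mitosis markers, 6 fell in PANC-1 (median -0.59, with PLK1 at -1.22) and 9 in Mia-PaCa-2 (median -0.84, with CENPE at -2.29), and none rose. Of all genes tested with gemcitabine, 4.49% rose and 3.03% fell in PANC-1, and 15.0% rose and 14.6% fell in Mia-PaCa-2. With both drugs 6 S phase markers rose and 9 mitosis markers fell in PANC-1, and in Mia-PaCa-2 4 S phase markers rose, 1 fell and 7 mitosis markers fell. Of all genes tested with both drugs, 10.2% rose and 6.90% fell in PANC-1, and 20.3% rose and 20.2% fell in Mia-PaCa-2. The part of cell cycle phases in the changes of the 43 genes was not tested.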

How the data were processed

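Deposited values of 2 kinds were used, from single-read stranded poly-A libraries of 8 groups with 2 biological replicates each. The authors mapped the reads to GRCh37 with TopHat2 2.0.4, removed reads with multiple alignments (Picard 1.29) and counted reads per gene with HTSeq 0.6.1, and these deposited counts are whole numbers without normalization. The authors also deposited FPKM per gene from Cufflinks 2.1.1, already scaled to length and library size. Versions are those of the submitters' processing notes. The annotation release and the strand setting are not given in the sources used here. Isoform FPKM values were not used. Depth was 12943482 to 31991860 counts per library, which with 2 libraries per group limits the precision.

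The counts were normalized with TMM (edgeR 4.0.16), filtered with filterByExpr and compared by limma-voom, the test named in the study's methods, under R 4.3.3 (limma 3.58.1). The 8 libraries of a line shared a model, and all 16 libraries a model for the comparison of the lines and of their responses. Adjusted p-values are Benjamini-Hochberg values over all genes tested. A call needed an adjusted p up to 0.05, a log2 change of 0.4 or more in either direction and a mean above 1 FPKM in the treated group (in either line between lines), and differences between responses needed the adjusted p alone. "Rose" and "fell" are used of calls. The GC correction removed a loess trend (span 0.3, degree 1) of each library's log2 CPM on exon GC content, taken from GENCODE annotation lifted to GRCh37. The procedure was tested on simulated counts for gemcitabine against control, with 100 changed genes of each size. In Mia-PaCa-2 it recovered 92.0% of changes of log2 1 and 69.0% of those of log2 0.6, with 10 false calls. In PANC-1 it recovered 67.0% and 18.0%, with 7 false calls. A gene that was not called, above all in PANC-1, may therefore have changed. DESeq2 1.42.0, edgeR's quasi-likelihood test, limma-trend on log2(FPKM + 1) and log2(FPKM + 0.1), other scalings, no filter, a replicate block and each library left out were alternatives. A fit without a library leaves 1 in its group. Counts of members from such fits are given without the share of all genes called, which may have moved as well.

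The members and lists were chosen with earlier results of these data known, although membership itself was by gene symbol and not by a measured value. Any member could be named, with test statistics for at most the 6 largest rises and falls per comparison and the values in each library for the 3 largest rises or falls, and at most the 2 largest called rises and falls of partner genes. Values per library of FANCF, EME1, RAD50, BARD1 and BRCA2 in other comparisons were added after they were seen.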

Additional observations from a re-analysis of the deposited data

Results flagged for a closer look

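The response to gemcitabine differed between the lines for 12 members by a test of the difference itself (limma-voom, PANC-1 minus Mia-PaCa-2, log2 scale). For 11 of them the response was higher in PANC-1, namely FANCB (1.59, adjusted p = 0.0176), RAD50 (1.49, adjusted p = 0.0237), RAD54B (1.38, adjusted p = 0.0331), BARD1 (1.31, adjusted p = 0.00287), ATR (1.31, adjusted p = 0.0267), BRIP1 (1.21, adjusted p = 0.0214), PALB2 (1.05, adjusted p = 0.0115), XRCC2 (1.04, adjusted p = 0.00866), WEE1 (0.77, adjusted p = 0.00930), EXO1 (0.75, adjusted p = 0.0257) and RAD52 (0.73, adjusted p = 0.0188). For EME1 it was lower (-0.47, adjusted p = 0.0456). With both drugs, the normalized CPM of BARD1 (log2 difference 1.07) and RAD52 (0.59) were higher than the controls in each PANC-1 library and lower in each Mia-PaCa-2 library, and this difference was not tested. In FPKM the groups overlapped for both genes in PANC-1 and for RAD52 in Mia-PaCa-2. No group had enough libraries for a check of single outlying libraries.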

How the results depend on the processing

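Of 2202 values of single genes under an alternative, 1697 kept the call, 505 kept the direction without passing and 0 reversed. Of 253 counts of called members, 183 stayed within 1.5 times the reported count, and 70 did not. The cause was not tested. The 183 include counts of 0 that stayed at 0, among them those for genistein in PANC-1, where no call could be lost. The 2202 values are of members already called in the main fit, refitted on the same or nearly the same libraries. A reversal was therefore unlikely from the start, and its absence says little. Counts of members in this section are given without the share of all genes called, which is given above for the GC correction alone. They therefore do not tell a change of the members from a change in calls over all genes. Limma-trend on log2(FPKM + 1) and on log2(FPKM + 0.1) called 5 and 6 members for gemcitabine in Mia-PaCa-2, 0 and 0 for genistein, 13 and 13 for both drugs and 0 and 0 for both drugs against gemcitabine, 7 and 7 for gemcitabine in PANC-1, and 4 and 4 for the difference in gemcitabine response. With an adjusted p of at most 0.01 the counts were 0 for genistein and 0 for both drugs against gemcitabine in Mia-PaCa-2, 1 for gemcitabine and 3 for both drugs in PANC-1, and 3 for the gemcitabine difference. With only the 4 libraries compared they were 8 for genistein in Mia-PaCa-2, and 4 for gemcitabine and 0 for both drugs in PANC-1. For both drugs against gemcitabine, DESeq2 called 1 member in each line, and without the low-count filter 1 was called in Mia-PaCa-2. Library size alone called 17 for both drugs in PANC-1. The GC correction called 4 for both drugs against gemcitabine in Mia-PaCa-2, and in PANC-1 25 for gemcitabine, 16 for both drugs and 1 for both drugs against gemcitabine, and 20 for the gemcitabine difference. With each library left out in turn, the counts ran from 9 to 16 for gemcitabine, from 0 to 8 for genistein and from 0 to 10 for both drugs against gemcitabine in Mia-PaCa-2, from 0 to 21 for gemcitabine and from 4 to 12 for both drugs in PANC-1, from 15 to 28 between the control lines, and from 3 to 22 for the gemcitabine difference.

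The labels do not say whether the replicate numbers pair the libraries. The correlations of same-numbered deviations ran from -0.275 to 0.139 in Mia-PaCa-2 and from -0.535 to 0.291 in PANC-1. They cannot settle the pairing, because such deviations also carry differences between single libraries, such as the GC slope. With the replicate block 1 member was called for both drugs against gemcitabine in Mia-PaCa-2, 2 for gemcitabine (EXO1 and BARD1) and 5 for both drugs in PANC-1, and 7 for the gemcitabine difference. The block with the GC correction called 22 for gemcitabine and 1 for both drugs against gemcitabine in PANC-1. Crossed numbers, chosen after seeing the data, called 18 for both drugs and 1 for both drugs against gemcitabine in PANC-1. The lowest count of a member in a library was 19, that of BRCA2 in Mia-PaCa-2 genistein I, and the part of depth in the calls was not tested.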

Other observations

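The FPKM and the counts of BARD1 stood apart in the PANC-1 controls, at 3.25 and 20.04 FPKM against 13.3 and 19.4 normalized CPM, from 272 and 601 counts. Among the partner genes, the untreated lines differed most in C17orf70 and C19orf40, core complex subunits that were higher in PANC-1 by log2 3.26 ± 0.291 (SE, adjusted p = 4.5e-07 by limma-voom) and 2.45 ± 0.155 (SE, adjusted p = 1.7e-08). C17orf70 was at 26.5 and 28.3 normalized CPM in the Mia-PaCa-2 controls and at 325 and 218 CPM in those of PANC-1. WRN, a helicase, was the partner that stood lowest in PANC-1 against Mia-PaCa-2 (log2 -2.02). In PANC-1 each of the drug-treated groups held less C17orf70 than the controls, at 121 and 90.2 CPM with gemcitabine, 120.0 and 101.1 CPM with genistein and 71.5 and 120.0 CPM with both drugs. Summed over the 43 members, PANC-1 held 1827 and 2032 normalized CPM in the controls, 2601 and 2706 with gemcitabine, 1954 and 1984 with genistein and 2506 and 2219 with both drugs, and the 8 Mia-PaCa-2 libraries held 1506 to 1680.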
